A study of Rattus norvegicus with 54 samples.

Results

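The mitochondrial carriers of the Slc25 family and the uncoupling proteins *Ucp1*, *Ucp2* and *Ucp3* were followed in Wistar rat liver and in skeletal muscle of the hind limb, from foetal life to the first days after birth. Members were chosen by name: a probe set had to carry a single gene symbol that begins with Slc25a or equals one of the uncoupling proteins. This gave 45 probe sets of 40 genes, out of 15310 probe sets of 14506 genes with a single symbol. Of 51 symbols sorted by known substrate, 12 had no such probe set and were not analysed here, among them the aspartate/glutamate carriers *Slc25a12* and *Slc25a13* and the adenine nucleotide exchanger *Slc25a31*. *Slc25a54* was a member with no place on these substrate lists.

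Total RNA was hybridised to Affymetrix Rat Gene ST arrays, 24 of liver and 30 of muscle. Liver was taken from foetuses at days F16, F20 and F22, from pups at P1 and P4 and from adults at P90 kept on standard chow, with 4 arrays in each group. Muscle was taken at F16, F18, F20, F22, P1 and P4, with 5 arrays in each group. All animals were untreated rats of the same outbred strain, and foetuses were delivered by Caesarean section from sacrificed mothers. The labels call the arrays of a group biological replicates but do not state litters, so that p-values measure the spread between these samples, some of which may share a litter. Values are log2 signals after robust multi-array average (RMA), 1 per probe set and array. Array medians over the probe sets with a single symbol were 7.64 to 7.85 in liver and 8.65 to 8.84 in muscle. The paper does not state whether the tissues were normalised together. Levels are therefore compared between time points of a probe set, and the tissues only by their changes. Changes were tested with limma across all 15310 probe sets, and a change was called where p adjusted by Benjamini-Hochberg did not exceed 0.05.

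The tissue labels were checked against marker genes. The mean level of 10 hepatocyte markers on the liver arrays was 11.79 to 11.87 at F16 and 13.07 to 13.19 at P4, all 10 rose over this span (median 0.60), and their part in the rises of liver carriers was not tested. In muscle, the mean level of 10 myofibre markers, 9 of which rose, went from 8.66 to 9.15 at F16 to 11.36 to 11.54 at P4. The muscle arrays also carried markers of other limb tissues. Keratinocyte markers (4 genes) were at 9.07 to 10.10 at F16 and 12.11 to 12.40 at P4. At P4 fibroblast markers (6 genes) were at 12.67 to 12.79 and cartilage markers (4 genes) at 8.73 to 10.17. The part of these tissues in the muscle values was not tested. Arrays of a group correlated with each other at a mean r per array of 0.983 to 0.997 in liver, lowest for P1 replicate 1, and 0.988 to 0.996 in muscle, lowest for F22 replicate 5. Signals were weak for several members, and no probe set was removed for low signal. Of the 45 probe sets, 32 were brighter than the median probe set in liver and 27 in muscle.

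Mitochondrial carriers are small proteins of the inner mitochondrial membrane that move metabolites, nucleotides, cofactors and inorganic ions between the cytosol and the matrix. The uncoupling proteins belong to the same family, and *Ucp1* lets protons back into the matrix so that brown fat makes heat in place of ATP. In liver the carriers link mitochondria to urea synthesis, gluconeogenesis, fatty acid oxidation and lipogenesis, and in muscle the exchange of ATP for ADP feeds contraction. Foetal liver is also the site of red cell formation, for which mitochondria import iron and make haem.

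Over the 6 time points, 41 of the 45 probe sets changed in liver, where 84.3% of all probe sets did so, and 37 changed in muscle against 75% of all. These shares are close to those of the array as a whole, and the members were described by their sizes and courses. Between F16 and P4 in liver, 18 probe sets rose and 12 fell, where 23.1% of all probe sets rose and 35% fell. The median log2 change was 0.11 over members and -0.03 over all probe sets, and 9 members changed by more than 1. In muscle, 17 rose and 10 fell between F16 and P4, against 26.7% and 35% of all, with a median of 0.07 over members and -0.04 over all, and 6 members changed by more than 1.

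Sequence upstream of the start site is shown for 4 members on which the results turn: *Slc25a47*, the steepest rise in liver, *Slc25a4*, the steepest fall towards adult liver, and *Ucp3* and *Ucp2*, which are consecutive protein-coding genes on chromosome 1 and had different courses in liver, though both rose in muscle. Each line gives the 250 bases before the RefSeq start on build GRCr8, 5′ to 3′, on the plus strand. Capitals mark the letters AGATAA, a core motif of GATA factors. The intervals are chr6:133531491-133531740 for *Slc25a47*, chr16:52805271-52805520 for *Slc25a4*, chr1:164227660-164227909 for *Ucp3* and chr1:164251123-164251372 for *Ucp2*.
Slc25a47: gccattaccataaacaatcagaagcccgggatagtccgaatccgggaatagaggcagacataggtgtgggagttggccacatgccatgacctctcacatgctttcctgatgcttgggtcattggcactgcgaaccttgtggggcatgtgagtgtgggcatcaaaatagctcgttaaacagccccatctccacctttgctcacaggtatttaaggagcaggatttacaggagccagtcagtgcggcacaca
Slc25a4: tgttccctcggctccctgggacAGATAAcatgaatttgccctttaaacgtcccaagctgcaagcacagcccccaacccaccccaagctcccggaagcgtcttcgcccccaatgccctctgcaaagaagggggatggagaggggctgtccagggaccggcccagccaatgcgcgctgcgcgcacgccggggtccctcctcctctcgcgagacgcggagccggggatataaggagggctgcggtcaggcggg
Ucp3: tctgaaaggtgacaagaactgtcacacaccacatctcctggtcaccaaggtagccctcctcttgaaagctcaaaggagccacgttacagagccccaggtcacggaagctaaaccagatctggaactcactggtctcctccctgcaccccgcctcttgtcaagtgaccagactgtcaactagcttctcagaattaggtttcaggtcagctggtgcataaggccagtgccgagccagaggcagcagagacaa
Ucp2: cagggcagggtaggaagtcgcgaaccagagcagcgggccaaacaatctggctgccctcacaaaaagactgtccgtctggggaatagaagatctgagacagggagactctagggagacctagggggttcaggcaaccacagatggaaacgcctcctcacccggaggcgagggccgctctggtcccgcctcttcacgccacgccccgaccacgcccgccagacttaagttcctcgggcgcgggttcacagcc
RefSeq upstream sequences were matched for 35 of the 40 genes. The mitoferrin *Slc25a37* was among the genes without a match and was not searched. AGATAA, searched on both strands, occurred in 2 of the 35, *Slc25a4* (228 bases before the start) and *Slc25a41* (17 bases before it), and in 10.3% of all 33469 upstream sequences. TNAAGGTCA, the extended half-site of oestrogen-related receptors, occurred in 0 of the 35 and in 1.04% of all.

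The steepest rise among the members in liver was that of *Slc25a47*, a carrier known for its high expression in liver. Its 4 F22 arrays read 8.31, 8.13, 7.85 and 8.03, and the 4 P1 arrays 10.91, 12.02, 11.51 and 12.10. The lowest P1 array therefore lay above the highest foetal one. The log2 change from F22 to P1 was 3.56 (SE 0.19, limma adjusted p = 2.2e-12), which is 11.8-fold in RMA signal. Before birth the level had risen by 0.67 between F20 and F22 (SE 0.19, adjusted p = 0.0061), while F16 and F20 differed by 0.12 (95% interval -0.26 to 0.51). It stood at 11.11 ± 0.32 at P4 (SD, n = 4) and at 12.76 ± 0.03 in the adult, a further rise of 1.65 (SE 0.19, adjusted p = 8.0e-08). In muscle the same probe set was weak, with group means between 7.87 and 8.00, and was not called over time (adjusted p = 0.86). The highest muscle array, P4 replicate 3 at 8.40, also had the highest mean of the hepatocyte markers, 9.09 against 7.20 to 8.29 on the other P4 arrays, and their part in this value was not tested.

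**Figure D1:**
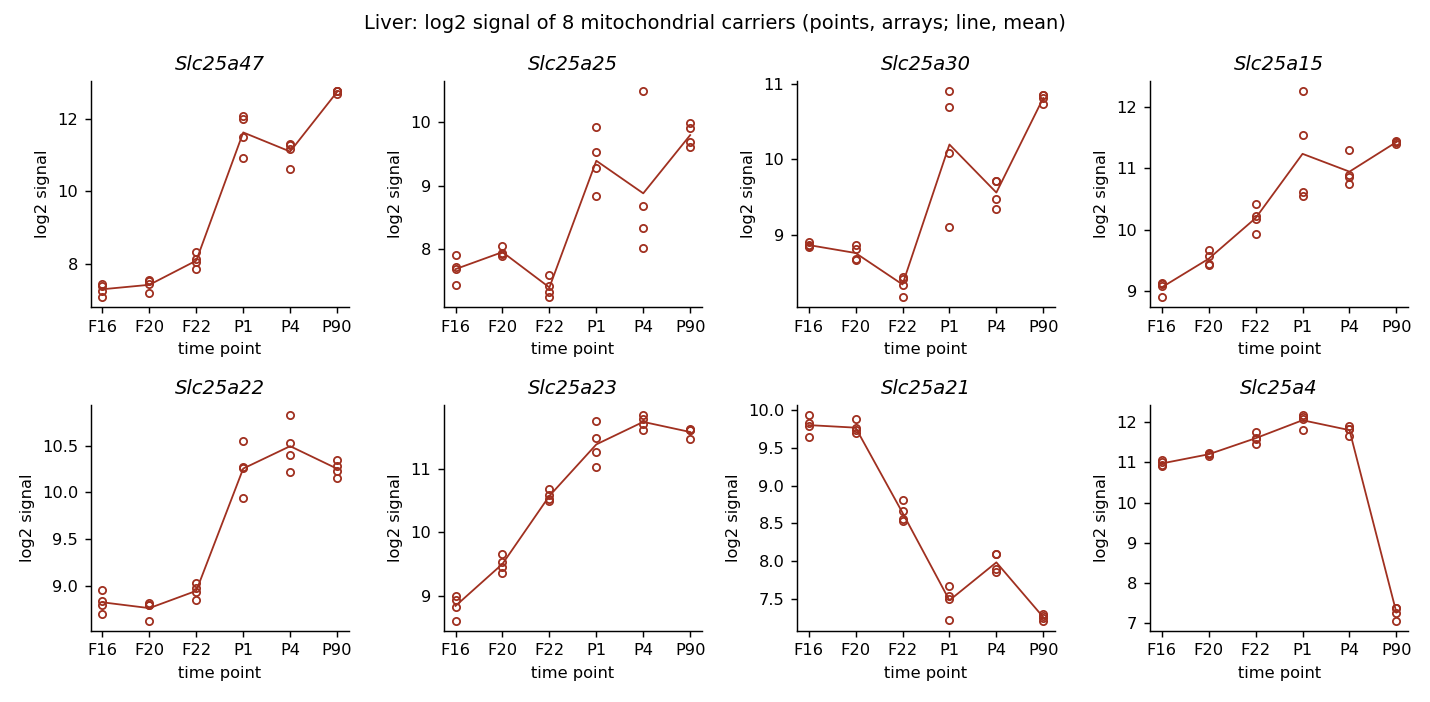
Log2 RMA signal of 8 mitochondrial carriers in liver at F16, F20, F22, P1, P4 and P90, with each open circle an array (4 per time point), the line joining the group means, and an own scale for each panel that does not start at 0. *Slc25a47* stepped up by 3.56 between F22 and P1, *Slc25a23* rose from F16 onwards, *Slc25a21* fell by 1.82 between F16 and P4, and *Slc25a4* dropped by 4.54 between P4 and P90.

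Birth was the step with most rises among the members in liver. Between F22 and P1, 17 probe sets rose and 7 fell, where 14.8% of all probe sets rose and 21.9% fell, and the median log2 change was 0.10 over members and 0.00 over all. From F16 to F20, 5 rose and 3 fell, against 9.22% and 13.2% of all. From F20 to F22, 7 rose and 15 fell, against 15.3% and 21.6%. From P1 to P4, 7 rose and 5 fell, against 4.87% and 6.1%.

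The carriers that stepped up at birth came from several substrate groups. *Slc25a25*, a calcium-regulated ATP-Mg/phosphate carrier, rose by 1.999 (SE 0.32, adjusted p = 2.8e-05), from 7.41, 7.25, 7.59 and 7.33 on the F22 arrays to 9.53, 8.84, 9.93 and 9.27 on the P1 arrays. All P1 arrays lay above all F22 arrays. At P4 its arrays spread widely, at 8.68, 8.01, 10.49 and 8.34, and without P4 replicate 3, the highest, the rise from F16 to P4 was 0.66 in place of 1.20. *Slc25a30*, a relative of the uncoupling proteins described in kidney, rose by 1.86 at birth (SE 0.22, adjusted p = 5.2e-07), with P1 arrays at 9.10, 10.91, 10.09 and 10.70 against 8.17 to 8.44 at F22. Its change of -0.42 from F20 to F22 was not called (adjusted p = 0.16).

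*Slc25a22*, a glutamate carrier, rose by 1.31 at birth (SE 0.11, adjusted p = 3.0e-09), after group means between 8.76 and 8.95 in the foetus. The F22 arrays read 9.03, 8.85, 8.97 and 8.94 and the P1 arrays 10.26, 9.94, 10.55 and 10.28, with no overlap. *Slc25a42*, a carrier of coenzyme A, rose by 1.09 (SE 0.23, adjusted p = 4.6e-04) with P1 arrays at 8.96, 10.78, 10.26 and 10.61 against 8.95 to 9.13 at F22. Here P1 replicate 1 lay within the F22 range and the other P1 arrays above it, and without that array the rise was 1.48. The same array was also the lowest of its group for *Slc25a47* and *Slc25a30*. Without it the fall from P1 to P4 was called for *Slc25a47* (-0.77, adjusted p = 0.0014), *Slc25a30* (-1.01, adjusted p = 1.4e-05) and *Slc25a42* (-0.75, adjusted p = 2.1e-05), and with it for none of them.

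*Slc25a15*, the ornithine carrier of the urea cycle, rose in liver before and at birth, by 0.66 from F20 to F22 (SE 0.23, adjusted p = 0.029) and by 1.04 from F22 to P1 (SE 0.23, adjusted p = 9.7e-04). Its P1 arrays fell into a high and a low pair, 12.25 and 11.54 against 10.61 and 10.54, all above the F22 arrays at 9.92 to 10.42. Without P1 replicate 1, here the highest, the rise at birth was 0.71. From F16 to P4 it rose by 1.88 (SE 0.23, adjusted p = 2.3e-07), and the difference of 0.48 between P4 and P90 was not called (adjusted p = 0.085, and 0.012 without P1 replicate 1). In muscle it was not called over time (adjusted p = 0.080), with group means from 8.80 to 8.99. Of 7 urea cycle and ornithine enzymes, 5 were higher and 1 lower at P4 than at F16 in liver, with a median of 2.55, led by *Cps1* (5.58), the enzyme that makes carbamoyl phosphate, *Arg1* (3.28), which releases urea, and *Ass1* (2.68), which joins citrulline and aspartate. In muscle 2 of the 7 rose and 1 fell. Of the other carriers of basic amino acids in liver, *Slc25a29* rose by 0.26 from F16 to P4. Its groups overlapped and its signal was weak, with 13.2% of all probe sets dimmer. *Slc25a2*, an ornithine carrier, rose by 0.43 at birth, with overlapping groups, before a change of -0.35 between P1 and P4 without overlap.

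*Slc25a20*, the carnitine/acylcarnitine carrier that brings long-chain fatty acids into the matrix, was the member with the least spread among the large liver changes. Its 4 arrays read 9.38, 9.34, 9.43 and 9.34 at F16, 10.01, 9.93, 10.05 and 9.92 at F22, 10.87, 10.96, 10.93 and 10.89 at P1 and 10.58, 10.60, 10.69 and 10.67 at P4. These 4 groups did not overlap. It rose by 0.53 between F16 and F20 (SE 0.05, adjusted p = 2.0e-08) and by 0.93 at birth (SE 0.05, adjusted p = 1.1e-12), then fell by 0.27 between P1 and P4 and by 0.39 towards the adult. In muscle it fell by 0.35 between F16 and F18, rose by 0.22 at birth and by 0.23 between P1 and P4, and at P4 (9.95 ± 0.04, n = 5) did not differ by test from F16 (9.87 ± 0.10, n = 5, change 0.08, 95% interval -0.02 to 0.18). Its partners in the carnitine shuttle, 5 measured, all rose in liver between F16 and P4 with a median of 1.40, led by *Cpt1a* (4.36), the gate enzyme of the shuttle in liver, *Crot* (1.63) and *Cpt2* (1.40). In muscle 4 of the 5 rose, led by *Cpt1b* (3.73), the muscle form. Genes that respond to fatty acids rose in 6 of 6 cases in liver, with a median of 1.70, led by *Pdk4* (4.09), *Acot1* (2.34) and *Acadm* (1.75), and in 5 of 6 cases in muscle, with a median of 0.70.

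*Slc25a23*, another ATP-Mg/phosphate carrier, rose through the whole foetal period in liver rather than at a single step. Its brighter probe set went from 8.85 ± 0.17 at F16 to 9.51 ± 0.13 at F20, 10.57 ± 0.08 at F22, 11.38 ± 0.31 at P1 and 11.73 ± 0.10 at P4 (SD, n = 4 each). Each of these steps was called on this probe set, and from F16 to P4 the change was 2.88 (SE 0.11, adjusted p = 4.4e-16), or 7.36-fold in RMA signal. The other probe set of the gene gave 2.83. The last step, 0.35 from P1 to P4, was lost without P1 replicate 1 or 3 or P4 replicate 1, 2 or 4, with values of 0.24, 0.31, 0.32, 0.36 and 0.34. *Slc25a24*, of the same group, was read by a pair of probe sets with changes of -0.25 and -0.03 between F16 and P4, neither called, and *Slc25a41*, a weak neighbour of *Slc25a23* on chromosome 9, had a change of 0.22 that was not called either.

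The adenine nucleotide exchangers pass ATP out of the matrix in exchange for ADP. *Slc25a4*, the form of heart and muscle, rose in liver from 10.97 ± 0.07 at F16 to 12.05 ± 0.16 at P1 (SD, n = 4). Its steps were 0.23 from F16 to F20 (adjusted p = 0.048), 0.40 from F20 to F22 (adjusted p = 4.0e-04) and 0.45 at birth (adjusted p = 1.1e-04), each with groups that did not overlap. *Slc25a5*, the form of dividing tissues, fell by 0.33 in liver between F16 and P4 (SE 0.07, adjusted p = 2.1e-04), from 12.69, 12.80, 12.74 and 12.69 to 12.30, 12.42, 12.48 and 12.39. *Slc25a3*, the phosphate carrier that supplies ATP synthase, fell by 0.55 over the same span. Markers of dividing cells, 4 measured, all fell in liver between F16 and P4 with a median of -1.55, and their part in these falls was not tested.

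*Slc25a21*, the oxodicarboxylate carrier of lysine and tryptophan breakdown, had the steepest fall among the members in liver between F16 and P4, a change of -1.82 (SE 0.09, adjusted p = 1.6e-14). Its arrays read 9.94, 9.83, 9.80 and 9.64 at F16, 8.56, 8.53, 8.81 and 8.66 at F22 and 7.67, 7.21, 7.54 and 7.49 at P1. F16 and F20 overlapped and every later foetal or newborn array lay below both. Between P1 and P4 it rose by 0.50 (SE 0.09, adjusted p = 4.8e-04), and it fell again by 0.73 towards the adult. *Slc25a10*, the dicarboxylate carrier, moved the other way in liver, by 0.60 at birth, 0.41 between P1 and P4 and 0.92 over F16 to P4 (SE 0.11, adjusted p = 1.6e-07). *Slc25a11*, the oxoglutarate carrier of the malate-aspartate shuttle, changed by 0.18 between F16 and P4. Of 6 enzymes of this shuttle and of the glycerophosphate shuttle, 5 rose and 1 fell. They were led by *Gpd1* of the glycerophosphate shuttle (2.29) and *Got1* of the malate-aspartate shuttle (1.95).

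Of 8 probe sets of cofactor carriers in liver, 4 were higher and 3 lower at P4 than at F16, against 23.1% and 35% of all probe sets. Beside *Slc25a42* the higher ones were *Slc25a17*, the peroxisomal carrier (0.48), *Slc25a26*, which carries S-adenosylmethionine (0.17), and *Slc25a16* (0.16). The 3 lower ones all read 1 gene, *Slc25a51*, the carrier of NAD, and fell by 0.66, 0.64 and 0.63. *Slc25a39*, which imports glutathione, fell by 0.57, *Slc25a46*, an outer membrane protein that shapes mitochondria, by 0.41, *Slc25a18*, a second glutamate carrier, by 0.44, and *Slc25a38*, the glycine carrier that feeds haem synthesis, by 0.34. *Slc25a54*, a neighbour of *Slc25a24* on chromosome 2, rose by 0.35 on a weak signal, with 9.4% of all probe sets dimmer. Changes from F16 to P4 lay between -0.08 and 0.03 and were not called for *Slc25a35*, of uncertain substrate, *Slc25a40*, *Slc25a44*, which carries branched-chain amino acids, and *Slc25a32*, which carries folate and flavins. For *Slc25a14*, *Slc25a27*, *Ucp1* and *Ucp3* the F-test over the 6 time points was not called in liver, although the single step from P4 to P90 was for *Ucp1*. Their signals there were weak, with between 17.7% and 32.1% of all probe sets dimmer.

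The mitoferrins carry iron into the matrix, *Slc25a37* mainly in red cell precursors and *Slc25a28* more widely. *Slc25a37* read 12.57, 12.51, 12.63 and 12.56 on the F16 liver arrays, 11.44, 11.29, 11.33 and 11.33 at P1 and 11.55, 11.56, 11.52 and 11.70 at P4. It fell by 0.54 from F20 to F22 and by 0.76 at birth (SE 0.07, adjusted p = 3.1e-08), rose by 0.24 between P1 and P4 (adjusted p = 0.043) and stood 0.98 lower at P4 than at F16 (95% interval -1.14 to -0.83). *Ucp2*, an uncoupling protein of blood and immune cells among others, took a similar course, with 12.65 ± 0.06 at F16, 12.16 ± 0.13 at F22, 11.62 ± 0.10 at P1 and 11.84 ± 0.11 at P4 (SD, n = 4), and its change from F16 to P4 was -0.81 (SE 0.07, adjusted p = 6.6e-10). *Slc25a28* kept between 8.74 and 8.91 in all groups up to P4, with no step called.

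Red cell markers moved with these changes. The mean level of 7 measured erythroid markers was 12.20 to 12.30 on the F16 liver arrays, 11.59 to 11.91 at F22, 10.85 to 11.004 at P1, 11.10 to 11.37 at P4 and 6.80 to 6.98 in the adult. All 7 fell from F16 to P4 (median -1.20), 3 of 7 rose from P1 to P4 and all 7 fell from P4 to P90 (median -3.76). Of 11 partners in haem synthesis and mitochondrial iron use, 9 were lower and 2 higher in liver at P4 than at F16, with a median of -1.05, led by *Uros* (-1.91), *Abcb10* (-1.50) and *Ppox* (-1.35). The part of red cell precursors in the values of *Slc25a37* and *Ucp2* was not tested, and in whole tissue fewer cells of a type and less RNA per cell cannot be told apart. Neutrophil markers rose in the same liver arrays between F16 and P4, 6 of 6 with a median of 3.22, and macrophage markers in 11 of 11 cases.

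**Figure D2:**
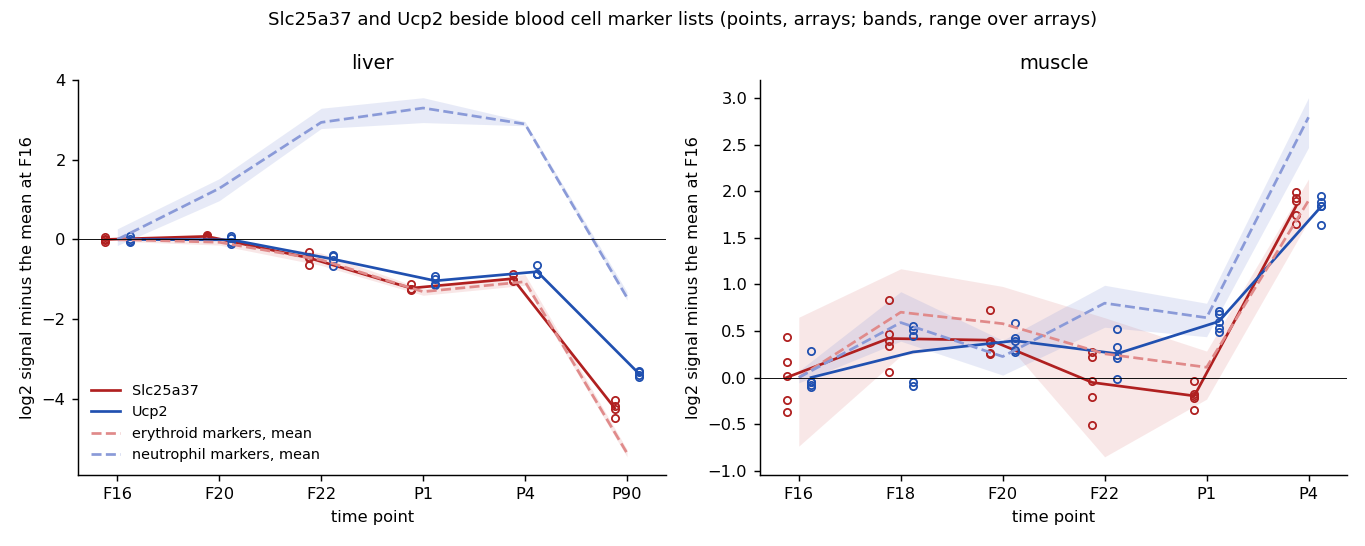
Log2 signal of *Slc25a37* and *Ucp2* minus their mean at F16, by time point in liver and in muscle, with open circles for arrays and solid lines for means, beside the mean level of erythroid (7 genes) and neutrophil (6 genes) markers as dashed lines with the range over arrays as bands. In liver both genes and the mean of the erythroid list went down between F20 and P1, were slightly higher at P4 and were lowest at P90, while in muscle both rose between P1 and P4, where both marker lists rose too.

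Between P4 and P90 in liver, 13 probe sets rose and 16 fell, where 28.8% of all probe sets rose and 27.1% fell. The largest fall was that of *Slc25a4*, with a change of -4.54 (SE 0.08, adjusted p = 2.7e-22), or 23.2-fold lower in RMA signal. Its P4 arrays read 11.84, 11.65, 11.90 and 11.82 and its adult arrays 7.38, 7.07, 7.25 and 7.36, which is lower than at any foetal time point. *Slc25a5* differed by 0.05 over the same span (95% interval -0.10 to 0.19).

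*Slc25a37* fell by 3.25 (SE 0.07, adjusted p = 2.2e-20), from 11.52 to 11.70 at P4 to 8.55, 8.39, 8.10 and 8.31 in the adult. *Ucp2* fell by 2.56 (SE 0.07, adjusted p = 5.5e-19), to 9.35, 9.25, 9.20 and 9.33. *Slc25a24* fell too, by 2.06 and 1.09 on its probe sets. In these comparisons the erythroid markers (7 of 7, median -3.76), the neutrophil markers (6 of 6, median -4.21) and the markers of dividing cells (4 of 4, median -3.06) were all lower in the adult, and their part in the falls was not tested. *Slc25a28*, the other mitoferrin, rose by 0.54 (SE 0.09, adjusted p = 2.6e-05), to 9.26, 9.34, 9.22 and 9.31, above all 4 P4 arrays.

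Beside *Slc25a47*, the highest rises towards adult liver were those of *Slc25a30* (1.26, SE 0.22, adjusted p = 4.7e-05) and *Slc25a1*, the citrate carrier (1.20, SE 0.06, adjusted p = 2.5e-14). *Slc25a1* read 9.36, 9.32, 9.32 and 9.15 at P4 and 10.55, 10.43, 10.49 and 10.47 at P90, and its weaker probe set rose by 0.51. Citrate exported by this carrier is the carbon source of fatty acid synthesis in the cytosol. Of 6 genes that use cytosolic citrate, 5 fell in liver between F16 and P4 with a median of -1.36, led by *Scd* (-2.74), *Acly* (-1.66) and *Fasn* (-1.42), and 5 rose and 1 fell between P4 and P90 with a median of 2.12. On its brighter probe set *Slc25a1* itself fell by 0.42 between F20 and F22 and rose by 0.24 at birth, and its change from F16 to P4 was 0.12 (not called), against 0.23 on the weaker probe set (called). *Slc25a10* rose by a further 1.18 to 11.64 ± 0.05, and *Slc25a25* by 0.92, a call that was lost without P4 replicate 1, 2 or 4 (0.85, 0.63 and 0.74) and that was larger, at 1.46, without P4 replicate 3, the array that stood above the others. Smaller rises were those of *Slc25a16* (0.69), *Slc25a29* (0.50), *Slc25a44* (0.49), *Slc25a35* (0.45), *Ucp1* (0.23, with overlapping groups and an F-test over time that was not called, adjusted p = 0.10) and *Slc25a26* (0.16). Smaller falls were those of *Slc25a17* (-0.64), *Slc25a40* (-0.61), *Slc25a32* (-0.58), *Slc25a2* (-0.39), *Slc25a11* (-0.24), *Slc25a3* (-0.22) and the probe sets of *Slc25a51* (-0.27 to -0.31).

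**Figure D3:**
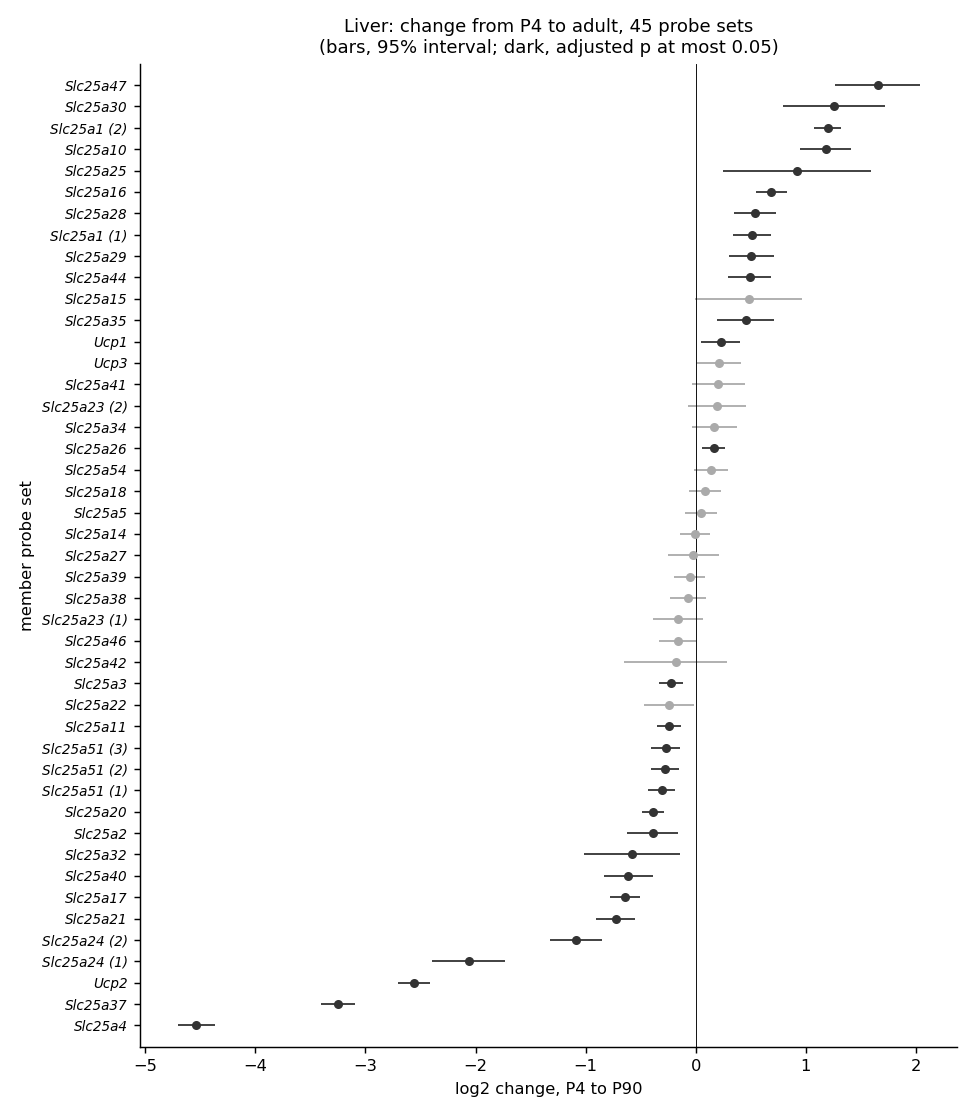
Log2 change from P4 to P90 in liver for each of the 45 member probe sets, with bars for the 95% interval and dark points for an adjusted p of at most 0.05 (genes with several probe sets are numbered). *Slc25a4*, *Slc25a37* and *Ucp2* stand at the lower end with -4.54, -3.25 and -2.56, and *Slc25a47* at the upper end with 1.65.

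In muscle the largest changes among the members came after birth. Between P1 and P4, 21 probe sets rose and 3 fell, where 19.2% of all probe sets rose and 14.7% fell, and the median was 0.13 over members and 0.02 over all. Between F22 and P1, 8 rose and 2 fell, against 9.5% and 8.82% of all. In the foetus falls were the more frequent, among members as over all probe sets. From F16 to F18, 3 rose and 10 fell (14.1% and 19.3% of all). From F18 to F20, 6 rose and 8 fell (14.6% and 15.9%), and from F20 to F22, 4 rose and 8 fell (6.02% and 13.8%). No member changed by more than 1 in any muscle step before P1.

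*Ucp3*, the uncoupling protein of skeletal muscle, rose by 1.86 in muscle between F16 and P4 (SE 0.12, adjusted p = 6.4e-14), or 3.64-fold in RMA signal. With *Slc25a37* (1.84) and *Ucp2* (1.83) it was among the 3 largest rises there. Its arrays read 7.72, 7.67, 7.82, 7.63 and 7.89 at F22, 8.10, 8.91, 7.98, 8.38 and 8.50 at P1 and 9.58, 9.65, 9.17, 9.21 and 9.16 at P4. These 3 groups did not overlap. No foetal step was called, and the rises were 0.63 at birth (SE 0.12, adjusted p = 3.2e-04) and 0.98 between P1 and P4 (SE 0.12, adjusted p = 3.2e-07). In liver *Ucp3* stayed between 6.69 and 6.91, and its change from F16 to P4 was -0.07 (95% interval -0.27 to 0.13).

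*Ucp1*, the brown fat protein, was not called over time in muscle (adjusted p = 0.37), with group means between 6.44 and 6.77. A single array stood out, P1 replicate 5 at 7.72 against 6.43 to 6.80 on the other P1 arrays. The mean of 8 adipocyte markers on that array was 9.52, the highest of the P1 arrays, which otherwise ranged from 7.72 to 9.36. Over the time course, adipocyte markers rose in 8 of 8 cases between F16 and P4, and 7 of them at birth. Of 4 thermogenic partners of *Ucp1*, *Elovl3*, a fatty acid elongase of brown fat and skin, rose by 2.12 and *Ppargc1a*, a coactivator of mitochondrial genes, by 1.00 in muscle between F16 and P4, and the others were not called. The part of fat or skin in these values was not tested, and keratinocyte markers also rose, 4 of 4.

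Over F16 to P4 *Slc25a37* and *Ucp2* rose in muscle, where both had fallen in liver, while between P1 and P4 they rose in both tissues. In muscle *Slc25a37* went from 9.25, 9.11, 9.06, 9.08 and 8.93 at P1 to 10.94, 11.03, 11.21, 11.18 and 11.28 at P4, a rise of 2.04 (SE 0.14, adjusted p = 7.9e-12). In the foetus it had risen by 0.42 from F16 to F18 and fallen back, with a change of -0.45 from F20 to F22. *Ucp2* went from 10.72, 10.89, 10.67, 10.86 and 10.78 at P1 to 11.81, 12.02, 12.02, 12.07 and 12.13 at P4, a rise of 1.23 (SE 0.11, adjusted p = 1.2e-09). Every P4 array lay above every earlier array for both genes. *Slc25a28*, the general mitoferrin, rose by 0.28 between F16 and F18 and by 0.34 between P1 and P4, and stood 0.53 higher at P4 than at F16 (SE 0.08, adjusted p = 1.9e-06).

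The erythroid markers in muscle had mean levels of 8.72 to 9.23 at P1 and 10.63 to 11.08 at P4, and 6 of 7 rose over this step, with a median of 1.64. *Alas2*, the erythroid enzyme of haem synthesis, was the exception, with -0.44 (not called). The neutrophil list went from 6.82 to 7.17 at P1 to 8.85 to 9.38 at P4, 6 of 6 higher, and the macrophage list from 8.47 to 8.53 to 8.44 to 8.65, 3 higher and 2 lower of 11. Haem and iron partners rose in 8 of 11 cases between P1 and P4. At F16 the highest array for *Slc25a37* (9.72), *Ucp2* (10.46) and the erythroid list (9.60) was replicate 1, and at F22 the lowest for *Slc25a37* (8.77) and the list (8.10) was replicate 5. At F18 *Ucp2* was at 10.13 and 10.09 in replicates 1 and 3 and at 10.63 to 10.73 in the others, and the erythroid list was at 9.44 and 9.18 in those replicates and at 9.67 to 10.12 in the others. Other groups matched in part or not at all. At P4 the erythroid list was lowest in replicate 3 (10.63), while *Slc25a37* and *Ucp2* were both lowest in replicate 1. At P1 the list was highest in replicate 1 (9.23), as was *Slc25a37*, while *Ucp2* was highest in replicate 2. The share of blood or marrow cells in the muscle values was not tested.

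*Slc25a4*, the main adenine nucleotide exchanger of muscle, rose between F16 and P4 in muscle as in liver. In liver its step from P1 to P4 was not called. Its muscle arrays read 12.13, 11.98, 12.08, 11.99 and 11.93 at F16 and 12.78, 12.78, 12.64, 12.74 and 12.78 at P4, with a change of 0.72 (SE 0.05, adjusted p = 9.8e-13). The steps called were 0.15 from F20 to F22, 0.27 at birth and 0.20 between P1 and P4. *Slc25a5* had a change of 0.11 between F16 and P4 (95% interval -0.01 to 0.23, not called) and *Slc25a3* rose by 0.24. All 7 measured genes of ATP synthase and the creatine kinases rose in muscle between F16 and P4, with a median of 0.59. They were led by *Ckm* (4.39), the muscle creatine kinase, and *Ckmt1* (1.12), a mitochondrial form. In liver 1 of these 7 rose and 1 fell.

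*Slc25a27*, a relative of the uncoupling proteins known from the nervous system, had the steepest fall in muscle, a change of -1.50 between F16 and P4 (SE 0.09, adjusted p = 7.3e-15). Its arrays read 9.16, 9.30, 9.09, 9.50 and 9.28 at F16, 8.98, 8.81, 8.99, 8.90 and 8.89 at F18, and 7.77, 7.86, 7.77, 7.70 and 7.75 at P4. These groups lay apart, and the steps called were -0.35 from F16 to F18, -0.59 from F18 to F20 and -0.32 from P1 to P4. *Slc25a14*, its relative, fell by 0.22, and *Slc25a30* did not differ by test (0.00, 95% interval -0.14 to 0.15). Further falls in muscle between F16 and P4 were those of *Slc25a40*, linked to glutathione (-0.60), *Slc25a10* (-0.48), *Slc25a2* (-0.41), *Slc25a29* (-0.41), *Slc25a17* (-0.34), *Slc25a54* (-0.19) and the citrate carrier *Slc25a1* (-0.15 and -0.21 on its probe sets). The F16 and P4 groups of *Slc25a14*, *Slc25a54* and *Slc25a1* overlapped. *Slc25a54* was the dimmest member in muscle (6.58% of all probe sets dimmer), and its F-test over time was not called (adjusted p = 0.071).

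Further rises in muscle were those of *Slc25a23*, *Slc25a34* and *Slc25a21*. *Slc25a23* rose by 1.06 between F16 and P4 (SE 0.14, adjusted p = 8.9e-08), with P4 arrays at 9.84, 9.83, 9.40, 9.49 and 9.55 above all P1 arrays (8.77 to 9.15). Its other probe set gave 1.14. *Slc25a34*, a carrier of uncertain substrate, rose by 0.96 (SE 0.07, adjusted p = 9.6e-13), from 7.16, 7.27, 7.28, 7.34 and 7.39 at F16 to 8.25, 8.25, 8.08, 8.39 and 8.25 at P4. *Slc25a21* was weak in muscle up to P1, with group means of 6.39 to 6.78 and a change of -0.30 between F20 and F22, and rose by 1.07 between P1 and P4 (SE 0.11, adjusted p = 6.9e-09) to 7.52, 7.60, 7.39, 7.59 and 7.69. *Slc25a11* (0.54), *Slc25a42* (0.53) and *Slc25a18* (0.46) rose by less between F16 and P4, as did *Slc25a16* (0.38), *Slc25a46* (0.33) and *Slc25a39* (0.27). *Slc25a35* (0.63), *Slc25a44* (0.32), *Slc25a26* (0.24) and the 3 probe sets of *Slc25a51* (0.24 to 0.25) rose between P1 and P4 with no call over F16 to P4. *Slc25a22* fell by 0.22 at birth and rose by 0.35 between P1 and P4.

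**Figure D4:**
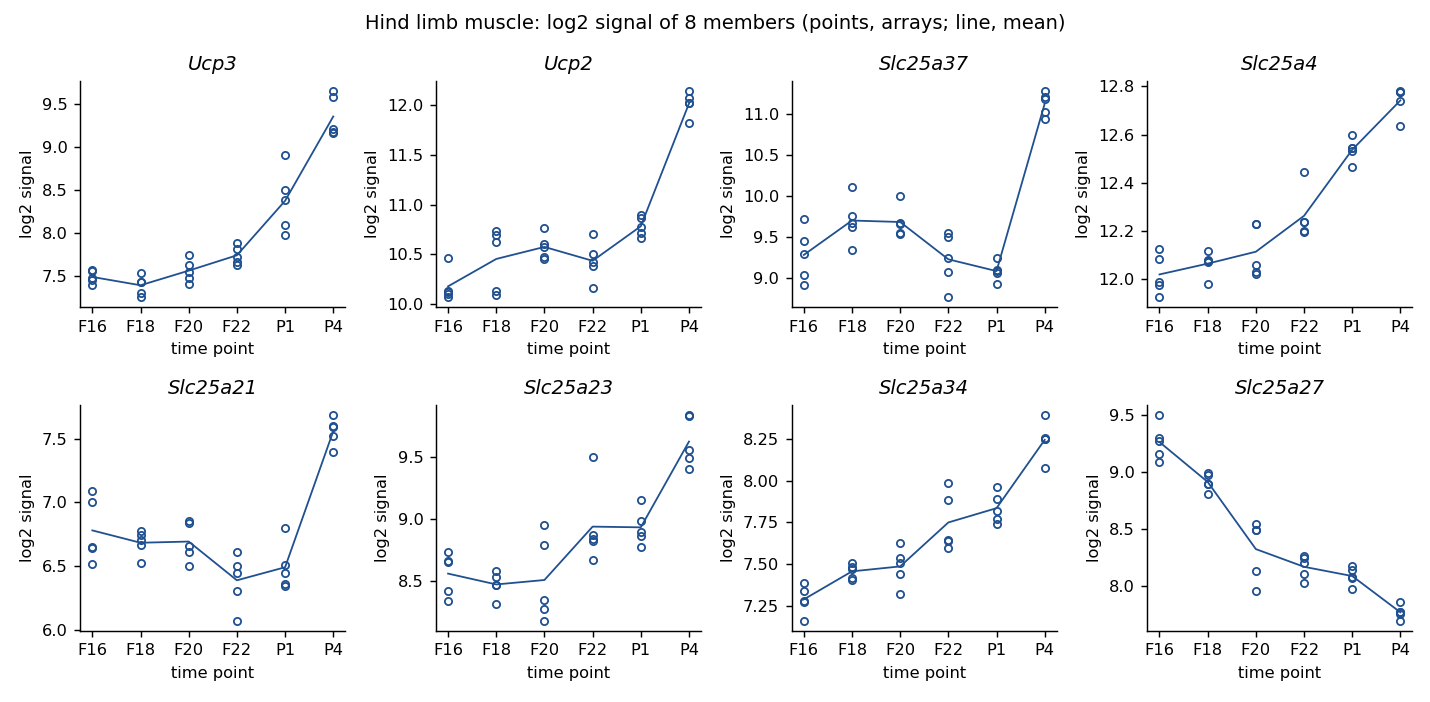
Log2 RMA signal of 8 members in hind limb muscle at F16, F18, F20, F22, P1 and P4, with each open circle an array (5 per time point), the line joining the group means, and an own scale for each panel that does not start at 0. *Ucp3*, *Ucp2*, *Slc25a37* and *Slc25a21* rose after birth, by 0.98, 1.23, 2.04 and 1.07 between P1 and P4, and *Slc25a27* fell by 1.50 between F16 and P4.

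The change from F16 to P4 was compared between tissues in a single fit of all 54 arrays. It differed for 37 of the 45 probe sets, where 57.8% of all probe sets differed, and by more than 1 for 13. The largest differences were those of *Slc25a47*, whose change was 3.74 higher in liver than in muscle (SE 0.21, adjusted p = 7.9e-21), *Slc25a37* (-2.82, SE 0.18, adjusted p = 1.3e-18), *Ucp2* (-2.64, SE 0.14, adjusted p = 2.9e-21), *Slc25a21* (-2.60, SE 0.14, adjusted p = 8.3e-21) and *Slc25a15* (1.94, SE 0.23, adjusted p = 3.7e-10). In liver *Slc25a37*, *Ucp2* and *Slc25a21* fell and in muscle they rose, each past the threshold in both tissues. *Ucp3* (-1.93) and *Slc25a27* (1.63) differed too, with changes of -0.07 and 0.13 in liver that were not called. *Slc25a10* was higher at P4 in liver but lower in muscle (difference 1.40, SE 0.13, adjusted p = 2.9e-13). *Slc25a4* rose in both tissues, and its difference was 0.11 (95% interval -0.08 to 0.30, adjusted p = 0.34).

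The step at birth differed between tissues for 22 of the 45 probe sets, against 32% of all. The change from F22 to P1 was higher in liver for *Slc25a47* by 3.63 (SE 0.21, adjusted p = 4.2e-19), *Slc25a25* by 1.94, *Slc25a30* by 1.76, *Slc25a22* by 1.52 and *Slc25a42* by 1.19. *Slc25a47*, *Slc25a25*, *Slc25a30* and *Slc25a42* had no called change at birth in muscle, and *Slc25a22* fell there. The change was lower in liver for *Slc25a21* (-1.26), *Ucp2* (-0.89), *Slc25a37* (-0.61) and *Ucp3* (-0.61). Of 15 other transporters of the mitochondrial membranes, from outside the carrier family, 6 rose and 3 fell in liver at birth and 6 rose and 1 fell in muscle, among them *Mpc1*, a subunit of the pyruvate carrier, with 0.56 in liver and 0.43 in muscle.

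**Figure D5:**
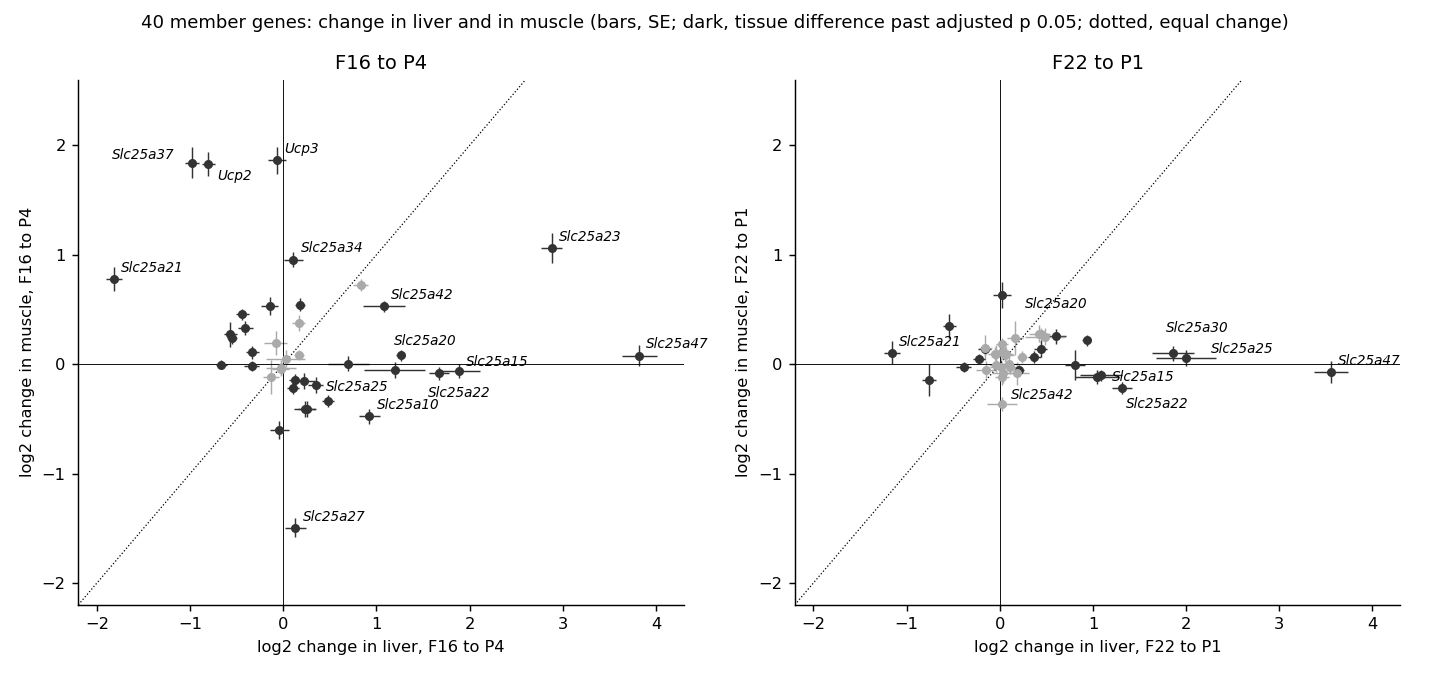
Log2 change in liver (horizontal) against that in muscle (vertical) for the 40 member genes, from F16 to P4 and from F22 to P1, with bars for the SE, dark points where the tissue difference passed an adjusted p of 0.05, and a dotted line of equal change. *Slc25a47* lies at 3.82 in liver and 0.08 in muscle for F16 to P4, *Slc25a37*, *Ucp2* and *Slc25a21* lie where liver fell and muscle rose, and the birth panel spreads along the liver axis.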

How the data were processed

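RNA of rat liver and hind limb muscle was measured on 54 arrays. Values were deposited as log2 signals by the authors, who had run RMA (background correction, quantile normalisation and median polish) in Affymetrix Expression Console, as named in the submitters' processing notes without a version. RMA compresses changes of weak probe sets. Array number, 4 or 5 a group, limits the precision. Groups were taken from the sample labels.

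Of 29214 probe sets, 15310 had 1 gene symbol in the platform annotation and were tested, 323 had several and 13581 none, and 15279 of the 15310 matched a current gene record. The members and gene lists were chosen with earlier results of these data known. Linear models (limma 3.58.1, R 4.3.3, lmFit and eBayes) were fitted within each tissue over its 6 groups, with a moderated F-test and moderated contrasts. Differences between tissues came from 1 fit of 12 groups. P-values were adjusted over all 15310 probe sets. No probe set was filtered. The fits were tested on simulated data. A gene with several probe sets is described by the brightest in that tissue.

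Arrays were given in full for the 8 largest F16 to P4 changes of each tissue, the 3 highest and 3 lowest P4 to P90 changes, the 5 largest tissue differences, the uncoupling proteins, and the nucleotide, iron, acylcarnitine and ornithine carriers, as far as a result turned on them. Partner lists name up to 3 genes. Alternatives were an unadjusted p, bright probe sets only, a trended robust prior, quantile normalisation again, median centring, the 5 time points of the paper, array weights, a replicate block, averaging per gene, 1 fit of both tissues, and leaving out arrays. Levels were not compared between tissues or between probe sets.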

Additional observations from a re-analysis of the deposited data

Results flagged for a closer look

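Among 228 groups of arrays of the 19 members described by array, 15 held an array far from the others of its group, and chance gives about 1 in 20. In muscle, F22 replicate 5 was such an array for *Slc25a22* (9.49), *Slc25a23* (9.50), *Slc25a4* (12.44) and *Slc25a5* (12.49), and it was also the muscle array least like its group. Other muscle arrays were those of *Slc25a25* at P4 (replicate 2, 8.39), *Slc25a37* at F20 (replicate 2, 10.01), *Slc25a4* at P4 (replicate 3, 12.64), *Ucp1* at P1 (replicate 5, 7.72, with the next at 6.80) and *Ucp2* at F16 (replicate 1, 10.46). In liver they were *Slc25a22* at F20 (replicate 3, 8.63), *Slc25a23* at P90 (replicate 2, 11.46), *Slc25a28* at F16 (replicate 2, 8.97), *Slc25a42* at F20 (replicate 2, 9.12), *Slc25a47* at P90 (replicate 3, 12.71) and *Ucp2* at P4 (replicate 4, 12.01).

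The change from F16 to P4 differed between liver and muscle, by a test of the difference in limma (adjusted p of at most 0.05), for 17 of the 19 members, against 57.8% of all probe sets. These members were named partly for large F16 to P4 changes and tissue differences, so that nothing is read from the count. Liver minus muscle was 3.74 for *Slc25a47*, 1.94 for *Slc25a15*, 1.82 for *Slc25a23*, 1.76 for *Slc25a22*, 1.63 for *Slc25a27*, 1.25 for *Slc25a25*, 1.18 for *Slc25a20*, 0.69 for *Slc25a30*, 0.55 for *Slc25a42* and 0.27 for *Slc25a1*. It was -2.82 for *Slc25a37*, -2.64 for *Ucp2*, -2.60 for *Slc25a21*, -1.93 for *Ucp3*, -0.85 for *Slc25a34*, -0.67 for *Slc25a28* and -0.44 for *Slc25a5*. The difference of *Slc25a42* was lost without liver P4 replicate 4 (0.47, adjusted p = 0.070).

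The step from F22 to P1 differed for 12 of the same 19 by this test, against 32% of all probe sets, and nothing is read from that count either. Liver minus muscle was 3.63 for *Slc25a47*, 1.94 for *Slc25a25*, 1.76 for *Slc25a30*, 1.52 for *Slc25a22*, 1.19 for *Slc25a42*, 1.16 for *Slc25a15*, 0.81 for *Slc25a23* and 0.71 for *Slc25a20*, and -1.26 for *Slc25a21*, -0.89 for *Ucp2*, -0.61 for *Slc25a37* and -0.61 for *Ucp3*.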

How the results depend on the processing

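No called change of a described member reversed its sign under any alternative run, and changes that were not called were not followed for their sign. The number of member probe sets called stayed within 1.5 times the reported one for all comparisons under the trended robust prior, repeated quantile normalisation, median centring, the 5 time points and 1 fit of both tissues. At an unadjusted p of at most 0.05, 21 were called in liver from P1 to P4 (12 reported) and 21 in muscle from F16 to F18 (13), where array weights gave 20. Averaged per gene, 5 were called in liver from F16 to F20 (8). With only bright probe sets, which left 27 members, 15 were called in muscle from F16 to P4 (27) and 21 for the tissue difference of F16 to P4 (37). A further fit left out liver P1 replicate 1 and muscle F16 replicate 5, F20 replicates 4 and 5 and F22 replicate 5. This set is not the list of flagged arrays above. Without it, 7 were called in muscle from F18 to F20 (14). Leaving out each array in turn gave 5 to 10 in liver from F16 to F20 (lowest without F16 replicate 1 or F20 replicate 3), 7 to 15 in liver from P1 to P4 (lowest without P4 replicate 2 or 4), 8 to 15 in muscle from F18 to F20 (lowest without F20 replicate 4) and 6 to 12 in muscle from F20 to F22 (lowest without F20 replicate 2 or F22 replicate 5). The other counts stayed within 1.5 times. Where a count moved for another reason than fewer probe sets or arrays, the cause was not tested.

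Replicate numbers are shared between groups. Deviations of same-numbered arrays had a mean correlation of 0.002 in liver (single pairs from -0.202 to 0.281) and -0.017 in muscle (from -0.402 to 0.363). The mean showed no pairing by number, but it cannot tell whether some arrays of the same number were related. With the replicate block, 29 member probe sets were called in liver from F16 to P4 (30 without) and 26 in muscle (27 without), and 4 calls of described members were lost: *Slc25a4* from F16 to F20 (adjusted p = 0.061) and *Slc25a37* from P1 to P4 (0.051) in liver, and *Slc25a4* (0.058) and *Slc25a5* (0.068) from F20 to F22 in muscle. Changes of weak members are limited by their signal over background.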
